A study of Zea mays with 6 samples.

Results

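Oil bodies are the droplets in which seeds store triacylglycerol, and in maize they are most abundant in the embryo and the aleurone. Oleosins coat the droplet and keep droplets from fusing, caleosins are calcium-binding coat proteins of which several act as peroxygenases, and oil body-associated proteins (OBAPs) are a further family found on the droplet. The 7 genes described here, of 49785 in the count table, were chosen by name: 4 oleosins, 2 OBAPs and 1 caleosin. In shrek1 kernels the mRNA of all 4 oleosins and both OBAPs was 20.4 to 245 times lower than in WT kernels, whereas that of the caleosin was 1.70 times higher.

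RNA came from whole maize (Zea mays) kernels with the pericarp peeled off, collected at 13 days after pollination from field-grown plants, in 3 libraries of the shrek1 mutant (genotype given as Shrek1-/-) and 3 of wild type (WT). The labels name neither the mutation nor the genetic background, and do not say whether replicates are separate ears, so p-values measure the spread between these libraries, which may be technical, and line or ear differences cannot be told apart from genotype. The mutated gene was not matched to a row of the tables, so its own level was not used to check the genotype labels. The libraries held 17145006 to 20288565 counts. On the second principal component, which held 4.09% of the variance, shrek1 replicate 3 lay at -47.0 and the other shrek1 libraries at 15.4 and 29.2. Zein mRNA, which marks starchy endosperm, was abundant in every library, with the gamma zein gene gz27 at 25825 to 31081 CPM in shrek1 and 32358 to 41571 CPM in WT (CPM, counts scaled to library size and to edgeR's TMM factors, which correct for RNA composition).

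Differences between shrek1 and WT were tested with edgeR's quasi-likelihood test over 22681 genes that passed a filter on low counts, with Benjamini-Hochberg adjustment over all of them and a threshold of 0.05. All 7 genes passed the filter. The genotypes differed widely, so that 32.4% of tested genes were called lower and 32.0% higher in shrek1, and the median log2 fold change of all tested genes was -0.01. Library size as the only scaling gave 4994 higher and 9682 lower genes, in place of 7264 and 7345, and moved that median to -0.30. Of the 7 oil body genes, 6 were called lower and 1 higher, and their median log2 fold change was -5.40. A fall of at least 16-fold, which all 6 lower genes showed, was called in 3.84% of tested genes. That limit was set with their values known.

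The most abundant of the oleosins is LOC542263 (ole1, chromosome 2, 22219327 to 22220208, plus strand), which encodes oleosin Zm-I. It had 103, 87.5 and 86.8 CPM in the shrek1 libraries, against 3546, 4521 and 3593 CPM in the WT libraries. The highest shrek1 library thus lay far below the lowest WT library. The log2 fold change was -5.40 ± 0.16 (SE), a level 42.1 times lower in shrek1, with an edgeR adjusted p of 1.18e-08. In these bulk kernels, here and for the genes that follow, fewer cells of a type and less of an mRNA per cell cannot be told apart. By FPKM, the authors' value per length, ole1 ranked 1160 among all genes in shrek1 and 12 in WT.

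A pair of genes carries the name of the 18 kDa oleosin Zm-II, and reads from near-identical stretches could be split between them. LOC100280594 (chromosome 1, 270372517 to 270373456, minus strand) had 16.04, 10.3 and 13.9 CPM in shrek1, against 1104, 1423 and 1176 CPM in WT. The second gene, LOC100280642 (chromosome 5, 12882156 to 12883291, minus strand), had 1.91, 2.41 and 3.77 CPM in shrek1, against 571, 762 and 656 CPM in WT. Neither gene's groups came near each other, and non-overlap with shrek1 lower was found in 35.3% of tested genes. The log2 fold changes were -6.52 ± 0.20 for LOC100280594 and -7.93 ± 0.24 for LOC100280642, with edgeR adjusted p of 1.4e-08 and 2.11e-08. LOC100280642 showed the largest fall of the 7 genes, 245-fold, and rested on 33, 39 and 66 raw counts in shrek1.

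The fourth oleosin gene, LOC100286327 (chromosome 9, 54603827 to 54604499, minus strand), is matched to a 16.4 kDa oleosin. It had 1.22, 1.11 and 1.83 CPM in shrek1, against 179, 263 and 184 CPM in WT. The genotypes were far apart, with every shrek1 library under 2 CPM. Its log2 fold change was -7.22 ± 0.24, with an edgeR adjusted p of 5.66e-08. With 21, 18 and 32 raw counts in shrek1, it was the gene with the fewest counts there.

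**Figure D1:**
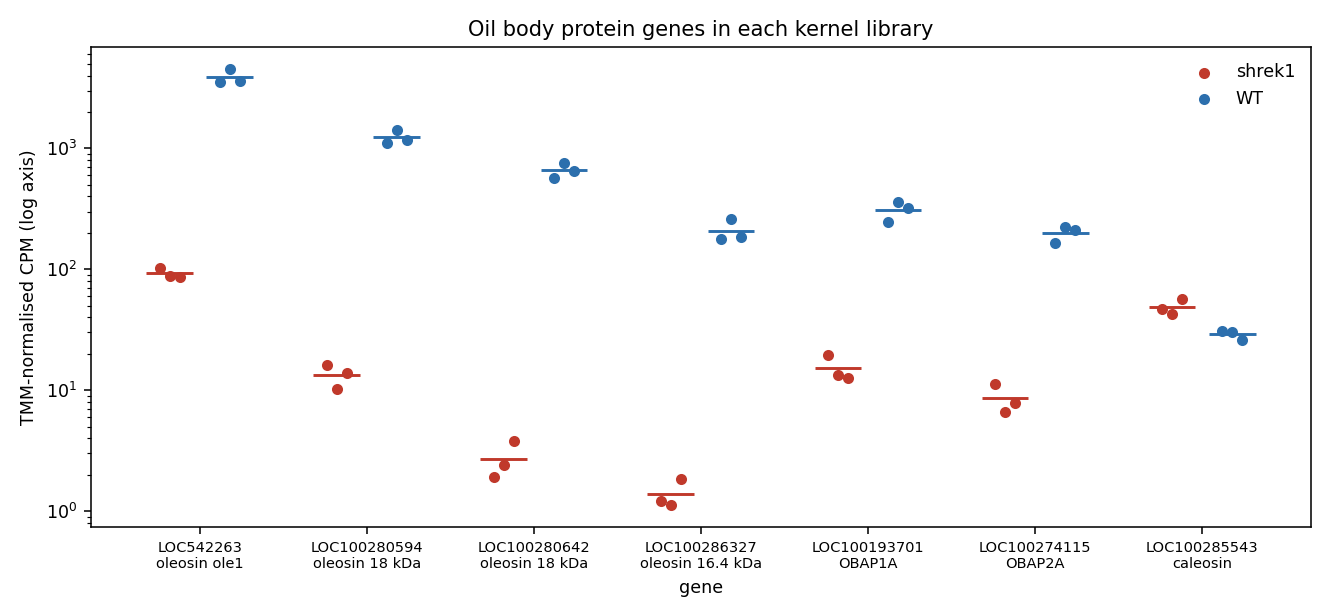
TMM-normalised CPM of each oil body protein gene on a log axis, with 1 point per library, shrek1 in red and WT in blue, and a line at each group's mean (n = 3). The 4 oleosins and the 2 OBAPs lie lower in all shrek1 libraries, and the caleosin LOC100285543 lies higher, at 43.0 to 57.0 CPM in shrek1 and 25.8 to 31.0 CPM in WT.

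Both OBAPs were also called lower. OBAP1A (LOC100193701, chromosome 4, 161219234 to 161220360, minus strand) had 19.6, 13.5 and 12.5 CPM in shrek1, against 247, 362 and 320 CPM in WT. For OBAP2A (LOC100274115, chromosome 3, 202894441 to 202895584, minus strand) the values were 11.3, 6.61 and 7.77 CPM in shrek1, against 166, 226 and 210 CPM in WT. In both genes, shrek1 replicate 1 was the highest shrek1 library and still lay below every WT library. The log2 fold changes were -4.35 ± 0.21 for OBAP1A and -4.55 ± 0.21 for OBAP2A, that is 20.4 and 23.4 times lower, with edgeR adjusted p of 5.08e-07 and 3.83e-07. A gene on the opposite strand overlaps OBAP2A in the table (LOC103652484), and it had no count in any library.

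The caleosin gene LOC100285543 (chromosome 1, 27805014 to 27812317, plus strand) went the other way. Its closest named protein in the table is a caleosin of Arabidopsis known as RESPONSIVE TO DESICCATION 20. It had 47.1, 43.0 and 57.0 CPM in shrek1, against 31.0, 30.0 and 25.8 CPM in WT. The groups did not overlap, as was the case with shrek1 higher in 34.7% of tested genes. The log2 fold change was 0.76 ± 0.12, with an edgeR adjusted p of 0.000339. Relative to the median of all tested genes it was 0.78 with TMM, 0.77 with library size as the only scaling and 0.53 with an offset for gene length. LOC103632908, on the opposite strand, overlaps it and had 22, 23 and 31 counts in shrek1 and 41, 33 and 23 in WT. Since the strand setting of the counting is not given, reads of the 2 genes cannot be told apart with certainty.

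**Figure D2:**
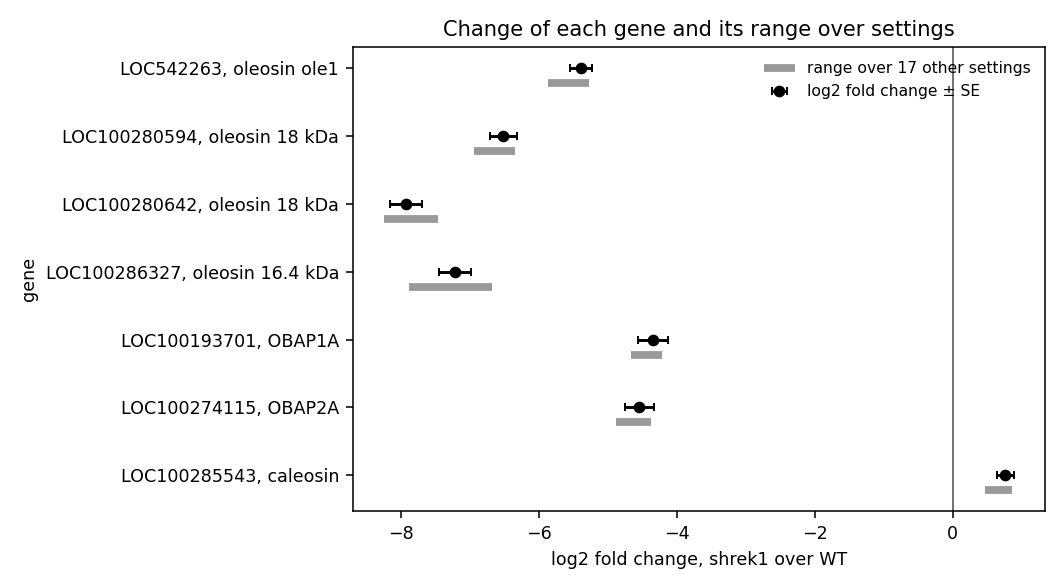
Log2 fold change of each gene, shrek1 over WT, with its standard error (black) and the lowest and highest value over 17 other settings of the analysis (grey bar). The oleosin and OBAP bars all lie below -4, and the caleosin bar runs between 0.47 and 0.86.

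Ranked per length, the order of the genes also differed between the genotypes. In shrek1 the FPKM averaged 103 ± 9.79 (SD, n = 3) for ole1, 41.8 ± 5.83 for the caleosin, 14.3 ± 3.60 for OBAP1A, 13.98 ± 2.94 for LOC100280594, 8.16 ± 2.32 for OBAP2A, 2.33 ± 0.817 for LOC100280642 and 2.02 ± 0.549 for LOC100286327. In WT it averaged 4413 ± 712 for ole1, 1315 ± 205 for LOC100280594, 585 ± 97.0 for LOC100280642, 311 ± 75.9 for LOC100286327, 299 ± 62.2 for OBAP1A, 195 ± 34.0 for OBAP2A and 25.2 ± 2.31 for the caleosin. The caleosin thus stood next to ole1 in shrek1 and last in WT. Neighbours whose libraries overlapped were OBAP1A with LOC100280594 and LOC100280642 with LOC100286327 in shrek1, and LOC100286327 with OBAP1A in WT.

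Ole1 made up a larger share of the oleosin mRNA in shrek1 than in WT. Of the summed FPKM of the 4 oleosins, ole1 held 84.9% ± 2.26 in shrek1 and 66.6% ± 0.730 in WT (SD, n = 3 each). LOC100280594 held 11.5% ± 1.61 in shrek1 and 19.9% ± 0.338 in WT. LOC100280642 held 1.96% ± 0.782 in shrek1 and 8.83% ± 0.469 in WT, and LOC100286327 1.68% ± 0.520 and 4.65% ± 0.357. For each of the 4 genes the shares of the genotypes did not overlap. The summed oleosin FPKM was 121 ± 11.4 in shrek1 and 6623 ± 1083 in WT.

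**Figure D3:**
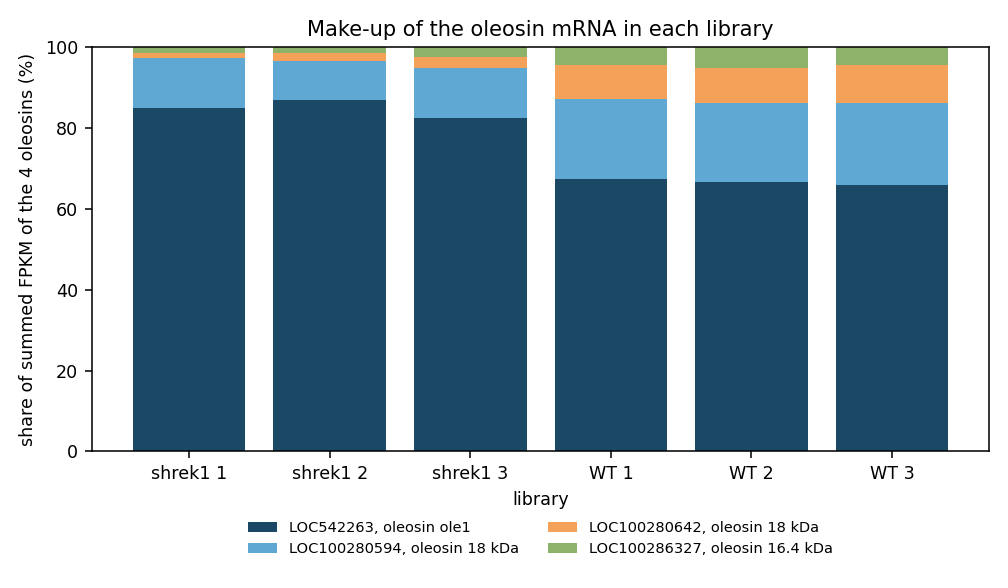
Share of each gene in the summed FPKM of the 4 oleosins, in percent, with 1 stacked bar per library, the 3 shrek1 libraries left of the 3 WT libraries. The ole1 segment (dark blue) is 82.5% to 87.1% in shrek1 and 66.0% to 67.4% in WT.

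Ratios within a library do not depend on the scaling between libraries, so each of the other genes was set against ole1 as a log2 ratio of counts (0.5 added to each). Since ole1 itself had a log2 fold change of -5.40, any gene that fell less, or did not change, has a higher ratio in shrek1. The ratios thus restate how each gene's fold change differs from that of ole1. The ratios of the 3 other oleosins to ole1 were lower in every shrek1 library than in any WT library, with mean log2 ratios of -2.80 ± 0.24 in shrek1 and -1.65 ± 0.04 in WT for LOC100280594, -5.13 ± 0.61 and -2.55 ± 0.09 for LOC100280642, and -6.06 ± 0.44 and -4.23 ± 0.11 for LOC100286327 (SD, n = 3 each). The ratios of both OBAPs to ole1 were higher in every shrek1 library, with -2.63 ± 0.21 in shrek1 and -3.66 ± 0.18 in WT for OBAP1A, and -3.46 ± 0.27 and -4.28 ± 0.17 for OBAP2A. For the caleosin the log2 ratio was -0.92 ± 0.27 in shrek1 and -7.06 ± 0.21 in WT, a difference of 6.15. None of these 6 comparisons overlapped between genotypes, and how often such ratios to ole1 overlap among all genes was not counted. The exact permutation test, two-sided, gave p = 0.1 for each, and the same after Benjamini-Hochberg adjustment over the 6. With 3 libraries on each side no smaller p can be had, so these differences did not pass.

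**Figure D4:**
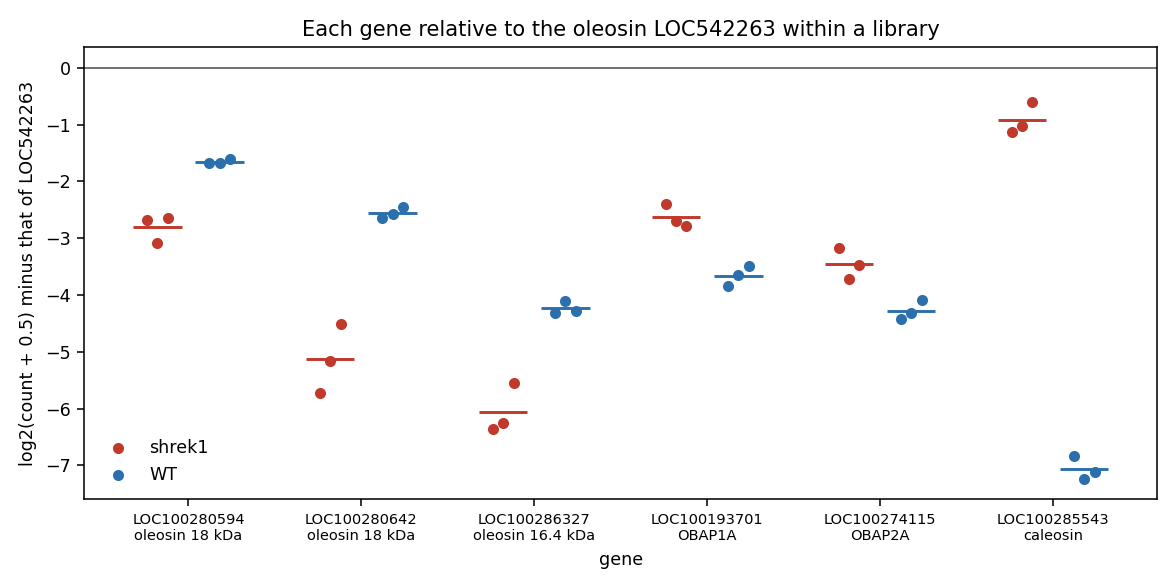
Log2 ratio of each gene's count to that of ole1 (LOC542263) within a library, with 1 point per library, shrek1 in red and WT in blue, and a line at each group's mean. The oleosin ratios are lower in shrek1, and those of the OBAPs and of the caleosin are higher.

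The genes that fell shared an order among the WT libraries. In WT, replicate 2 was the highest and replicate 1 the lowest library for all 6 genes that fell. In shrek1, replicate 1 was the highest library for ole1, LOC100280594 and both OBAPs, and replicate 3 for LOC100280642 and LOC100286327. The coefficient of variation in shrek1 was between 9.66% for ole1 and 35.7% for LOC100280642, and in WT between 9.55% for the caleosin and 22.4% for LOC100286327. As a share of all counts, the 7 genes together made up 0.0165% ± 0.00157 in shrek1 and 0.721% ± 0.109 in WT.

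The other genes named as lipid droplet proteins, 30 in the table and 22 tested, had 2 members higher, 16 lower and 4 that did not pass, with a median log2 fold change of -2.14. The calls lower made up 72.7% of the tested members, beside 32.4% of all tested genes. The list was chosen with earlier results of these data known, and it was divided into families after its values were seen. All 3 other tested oleosins fell, LOC100286352 to 1.67 ± 1.04 CPM in shrek1, against 86.8 ± 14.9 CPM in WT (SD, n = 3 each), LOC100280608 to 3.71 ± 0.407 CPM, against 72.8 ± 22.3 CPM, and LOC100280859 to 0.232 ± 0.207 CPM, against 25.9 ± 11.3 CPM. OBAP2B (LOC100286341) fell to 2.87 ± 0.382 CPM in shrek1, against 119 ± 44.5 CPM in WT. All 5 tested genes named as steroleosins or 11-beta-hydroxysteroid dehydrogenases, sterol-binding coat proteins of the droplet and their relatives, fell by log2 values between -6.50 and -5.41. The value of -5.41 ± 0.80 belongs to LOC103648012, which was near the floor, with 0.058, 0 and 0 CPM in shrek1 and 1.11 ± 0.295 CPM in WT. The closest named protein of LOC109944003, another of these genes, is a metal-nicotianamine transporter.

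Caleosins and peroxygenases did not move as one family. Of the 6 tested besides LOC100285543, 3 fell, 1 rose and 2 did not pass. Small falls depended on the setting. The call of LOC100282316 (-0.48) was lost without shrek1 replicate 2. LOC100217206 and LOC100283710, which did not pass, were called lower with library size as the only scaling. Calls in both directions were also common among all tested genes, with 32.4% lower and 32.0% higher. LOC100216957, matched to a protein named caleosin SiCLO, fell to 5.67, 4.08 and 5.999 CPM in shrek1, against 399, 482 and 372 CPM in WT, a log2 fold change of -6.31 ± 0.17. LOC100382264, matched to a peroxygenase, rose to 49.9, 52.2 and 72.7 CPM in shrek1, against 16.5, 15.3 and 12.4 CPM in WT, a log2 fold change of 1.98 ± 0.17. Of the FPKM summed over this family, LOC100216957 held 2.79% ± 0.457 in shrek1 and 77.3% ± 2.23 in WT. LOC100285543 held 30.6% ± 1.39 in shrek1 and 6.33% ± 0.551 in WT, and LOC100382264 37.4% ± 3.08 and 3.33% ± 0.419.

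LOC100283461, matched to a REF/SRPP-like protein, a family related to rubber particle proteins, had 282 ± 41.9 CPM in shrek1 and 394 ± 64.4 CPM in WT, with a log2 fold change of -0.48 ± 0.14, and its call was lost without shrek1 replicate 2 (-0.36). The stress-related protein gene LOC100279884 fell by 1.12 ± 0.11 on the log2 scale. Seipins shape the droplet as it buds from the endoplasmic reticulum, and the gene matched to Arabidopsis seipin-2 (LOC100277586) had 17.3 ± 1.68 CPM in shrek1 and 18.01 ± 0.736 CPM in WT and did not pass. The other tested gene grouped with the seipins, LOC100274536, fell to 3.40 ± 0.764 CPM in shrek1, against 20.5 ± 3.94 CPM in WT, a log2 fold change of -2.59 ± 0.20, and its closest named protein is a phosphatase.

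**Figure D5:**
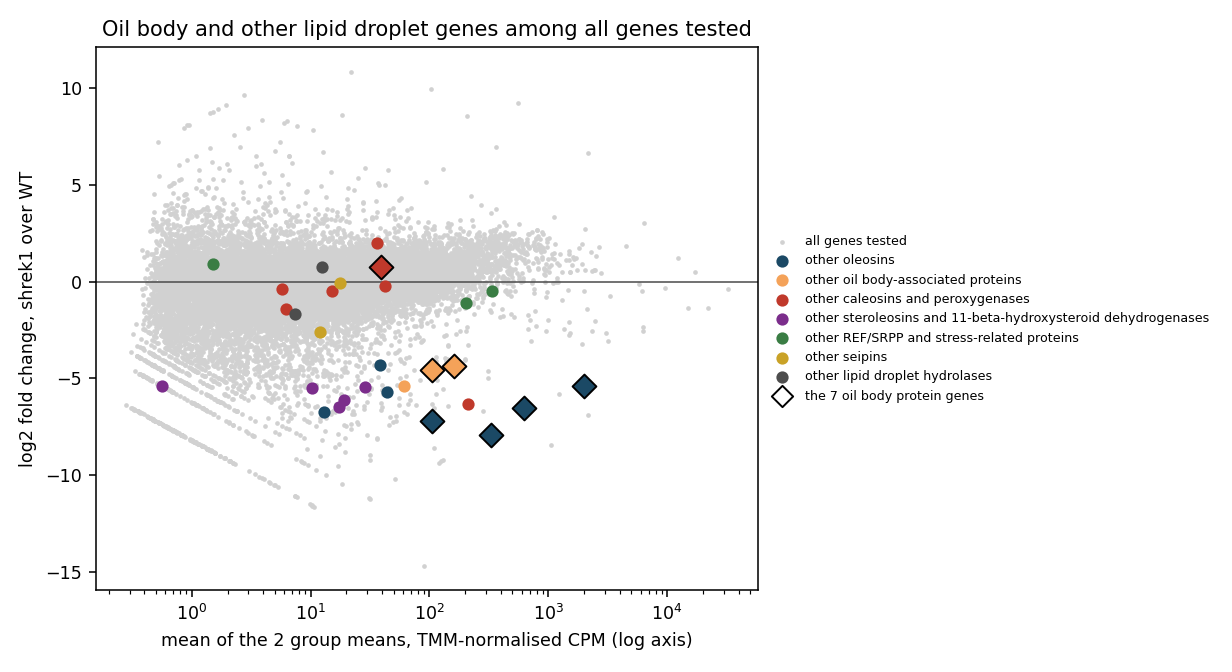
Log2 fold change, shrek1 over WT, against the mean of the group means in TMM-normalised CPM (log axis) for all 22681 tested genes (grey), the other lipid droplet genes (coloured by family) and the 7 oil body protein genes (diamonds). The oleosins, OBAPs and steroleosins lie between -7.93 and -4.29, and the caleosins and peroxygenases between -6.31 and 1.98.

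Genes that build or break down the stored oil were called in both directions, as were 32.0% higher and 32.4% lower of all tested genes. In the triacylglycerol assembly list 8 of 38 tested members rose (21.1%), 17 fell (44.7%) and 13 did not pass, with a median log2 fold change of -0.28. The genes LOC100217237 and LOC100193098, named after WRI1, a transcription factor that activates fatty acid synthesis in Arabidopsis seeds, fell to 19.6 ± 7.04 and 29.7 ± 13.5 CPM in shrek1, against 158 ± 50.6 and 112 ± 21.7 CPM in WT. LOC732844, named as an acyltransferase that makes phosphatidic acid, rose to 85.8 ± 5.23 CPM in shrek1, against 47.0 ± 3.68 CPM in WT. LOC103629820 and LOC100383910, matched to diacylglycerol O-acyltransferase 1, fell by 3.51 ± 0.13 and 2.06 ± 0.18 on the log2 scale. Of the genes matched to diacylglycerol O-acyltransferase 2, LOC100217122 fell (-1.74) and LOC100283803 rose (1.06). The list also holds acyltransferases named for phospholipids, such as LPEAT1 (LOC100193648), which rose by 0.74 ± 0.09. In the breakdown list 8 of 36 tested members rose (22.2%; 4 genes with library size as the only scaling), 13 fell (36.1%) and 15 did not pass, with a median of -0.16, and the share that fell was near that of all genes. Among them, the oil body lipase-like gene LOC109942402 rose by 0.90 ± 0.18 and an acyl-coenzyme A oxidase gene (LOC100191469) fell by 0.87 ± 0.14. Triacylglycerol lipase 2 (LOC103653206) fell to 2.20, 2.04 and 3.43 CPM in shrek1, against 105, 38.4 and 15.8 CPM in WT, a log2 fold change of -4.37 ± 0.83. Its WT libraries were far apart, and all lay above the shrek1 libraries.

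Several storage protein genes of the embryo fell as the oleosins and OBAPs did, but the embryo list as a whole did not move one way. The embryo list, made up of storage globulins, vicilins, late embryogenesis abundant proteins, dehydrins and embryo homeobox genes, had 14 of 72 tested members higher (19.4%), 31 lower (43.1%, beside 32.4% of all tested genes) and 27 that did not pass, with a median log2 fold change of -0.35. Its summed level was 1566 to 1909 CPM in shrek1 and 6595 to 7763 CPM in WT. Matching by words also brought in genes of other functions. Globulin 1 (LOC732801) had 4.28, 7.48 and 6.17 CPM in shrek1, against 2453, 2228 and 1657 CPM in WT. Globulin 2 (LOC542382) had no count in shrek1, which allows up to 0.171 to 0.185 CPM per library, against 141, 202 and 194 CPM in WT. It was 1 of 11 genes with counts in WT only among all 145 in the embryo list, including those that did not pass the filter. The same share among all genes was not counted. A vicilin-like gene (LOC103639475) stood at 43.8 ± 5.94 CPM in shrek1 and 2430 ± 311 CPM in WT. LOC100501311, a late embryogenesis abundant family gene and the third by level in the list, had 417 ± 103 CPM in shrek1 and 334 ± 26.8 CPM in WT, with overlapping libraries, and did not pass. It does not speak for the genes of that name, which went both ways. EMB564 (LOC542384) fell to 0.424 ± 0.345 CPM in shrek1, against 262 ± 57.5 CPM in WT. LOC100193918 fell as well (log2 fold change -6.83), whereas LOC100191528 rose (0.83). The part of the embryo markers in the fall of the oil body genes was not tested.

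Aleurone markers, whose cells also hold oil bodies, were split. Of 8 tested aleurone genes 4 rose and 4 fell (50% each), beside 32.0% higher and 32.4% lower of all tested genes. The summed level of the list was 969 to 1201 CPM in shrek1 and 599 to 688 CPM in WT. The 3 genes that follow had the largest rises in CPM, so the sum does not speak for the whole list. Among them pale aleurone color 1 (LOC100285351) rose to 258 ± 9.10 CPM in shrek1, against 30.9 ± 3.66 CPM in WT, and naked endosperm1 (LOC542199) to 377 ± 72.4 CPM, against 180 ± 24.9 CPM. Naked endosperm2 (LOC100304401) rose by 1.42 ± 0.16 on the log2 scale. Of those that fell, viviparous1 (LOC542523), which activates maturation genes in embryo and aleurone, had 7.70, 5.01 and 7.31 CPM in shrek1, against 99.1, 128 and 94.4 CPM in WT, a level 16.01 times lower. The 3 others fell by 0.73 (crinkly 4), 0.55 (defective kernel 1) and 0.46 (LOC103627556) on the log2 scale. Of 16 starchy endosperm genes 7 rose and 6 fell. The list summed to 71813 to 99074 CPM in shrek1 and 98602 to 135652 CPM in WT, ranges that overlap and in which zeins weigh most. The zein genes bz15 and gz16 were among those that fell, by 1.37 ± 0.19 and 1.33 ± 0.22 on the log2 scale. The most abundant, gz27, did not pass (-0.39 ± 0.16), though it was called lower in several other settings. Among those that rose were sucrose synthase LOC542365 (1.25 ± 0.21) and brittle endosperm 1 (LOC732804, 1.34 ± 0.18). In the transfer layer list 1 of 6 tested members rose (5 without shrek1 replicate 3, none without WT replicate 1 or WT replicate 3), and in the embryo-surrounding region list neither of 2 passed. Among seed maturation regulators, a list into which word matching also brought other genes such as signalosome subunits, 13 of 40 tested members rose (8 with library size as the only scaling) and 15 fell. These shares, 32.5% and 37.5%, were near those of all tested genes, 32.0% higher and 32.4% lower. Its most abundant called members that fell were viviparous1, LOC100502540 (-1.13) and LOC103632288 (-0.47, a call lost with an offset for gene length), as log2 fold changes. Those that rose were LOC100191376 (0.75, signalosome subunit 7), LOC100194102 (0.73, cell number regulator 8) and LOC100279474 (1.12, matched to a FRIGIDA-like protein). Among members of lower level, leafy cotyledon (LOC542498, -4.49, at 1.47 CPM in WT), LOC103636228 (named LFL1, -2.96) and viviparous14 (LOC732819, -2.95) fell. LOC103654015, matched to LEAFY COTYLEDON 1-LIKE, also fell (-7.91), with no count in shrek1 and 1.63 CPM in WT. LOC100304371, which has the same match, was called higher (0.76), but its libraries overlapped between the genotypes. The shares of this list are thus not those of maturation regulators alone.

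The genes closest in pattern were sought among protein-coding genes that averaged 50 CPM or more in 1 group, by the root mean square difference of centred log2(CPM + 0.5) over the 6 libraries. Of 4572 candidates, the closest to ole1 were LOC100191420, matched to a probable inactive receptor-like kinase, at a difference of 0.11, LOC100286328, named embryonic protein DC-8, at 0.19, and LOC100274799, at 0.20. These genes averaged 0.98 to 1.60 CPM in shrek1, where the added 0.5 shrinks a fold change. In the order given, their fitted log2 fold changes were -5.80, -5.60 and -6.28, against -5.40 for ole1. Closest to the caleosin LOC100285543, among 4573 candidates, were LOC100193990 at 0.03, LOC100273694, matched to the abscisic acid receptor PYL9, at 0.05 and LOC103627089, named as a protein phosphatase 2C, at 0.05.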

How the data were processed

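Raw counts per gene were deposited by the authors with no normalization, and the deposited FPKM equalled these counts divided by gene length and by 1 constant per library. Those constants were proportional to the scaling factors that DESeq2 estimates per library, not to the total counts. The tools listed in the submitters' processing notes are featureCounts 1.5.0-p3 and HISAT2 2.0.5. Their strand setting, and the build they ran on, are not given in the sources used here. Coordinates are the deposited table's; for all 7 genes they equalled those in the reference table of Zm-B73-REFERENCE-NAM-5.0, which gave chromosome numbers. No sequences were used.

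The main test was that of edgeR 4.0.16 under R 4.3.3 (filterByExpr, TMM, robust quasi-likelihood test, two-sided). Standard errors were derived from the fold change and F value and are approximate. Ratios were compared with exact permutation tests. limma 3.58.1 and DESeq2 1.42.0 served as alternatives, with log2 of FPKM plus 1 or 0.1 in limma. In 5 simulations on the 22681 genes, with 200 genes changed in each, 95.2% of genes changed by a log2 fold of 4 and 13.6% of those changed by 0.5 were recovered, and 7.94% of calls were false. That false share lay above the threshold of 0.05. Far more genes were called in the data (64.4%), so these rates need not hold for this comparison. A count of 0 allows up to 3 counts, and such limits cover counting error only, since no molecular identifiers are named in the labels. Named genes are all 7 oil body genes; of each pathway list the called genes of highest mean CPM, at most 3 in each direction; at most 3 of highest mean CPM from each marker list; and the 3 closest in pattern to ole1 and to the caleosin. Other droplet genes, globulin 2 and the aleurone genes that fell were named with their values seen. The same holds for some genes of the triacylglycerol assembly, caleosin, embryo, regulator and starchy endosperm lists. Some genes that the rule selects are given only in counts. The members and lists were chosen with earlier results of these data known.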

Additional observations from a re-analysis of the deposited data

How the results depend on the processing

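All 7 oil body genes kept their direction and their call in each of 17 other settings, with the values of the grey bars in the plot of log2 fold changes. The caleosin LOC100285543 ranged from 0.47 with library size as the only scaling to 0.86 without shrek1 replicate 2, and the largest adjusted p over its alternatives was 0.00819. The 6 ratios to ole1 kept their sign in all settings tried. With the replicate number as a block, 7150 genes were higher and 7198 lower, and the block changed no call of the 7 genes. Samples of the same number had correlations of 0.096, -0.0493 and 0.028 in their deviations from the group means, and not every sample correlated best with its own number, so the numbers were not taken as pairs. Without the zein genes in the total, the 7 genes held 0.864% of counts in WT. In the triacylglycerol breakdown list 8 genes were higher as reported, 5 under upper-quartile scaling, 4 when scaled by library size alone and 5 to 7 with a library left out. Of the regulators 8 were higher when scaled by library size alone, in place of 13. The transfer layer list had 2 higher with a mean count of at least 10 and 2 with the replicate block. With a library left out it had 0 to 5 higher and 0 to 1 lower, and the embryo-surrounding region list 0 to 1 higher. The late embryogenesis abundant family gene LOC100501311 (0.32 as reported) turned to -0.25 with the offset for gene length and -0.27 with that offset and the block. With a library left out, LOC542590 (miniature seed 1, a transfer layer gene) ran from -0.76, without shrek1 replicate 1, to 1.27, and the seipin-2 match LOC100277586 from -0.17 to 0.020, the highest without shrek1 replicate 2. None of these reversed values passed the threshold. The causes were not tested. The lowest shrek1 counts, 18 to 66 for LOC100280642 and LOC100286327, limit the precision of their fold changes.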
